A study of Mus musculus with 8 samples.

Results

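Lysosomal cathepsins were followed in the lungs of mice that had breathed ozone or filtered air, as 10 genes: Ctsb, Ctsc, Ctsd, Ctse, Ctsg, Ctsh, Ctsk, Ctsl, Ctss and Ctsz. Every probe set that the platform annotation ties to 1 of these genes alone was taken, which gave 17 of the 12488 probe sets on the array. All 10 genes were on the array; Ctsb had 4 probe sets, Ctsc and Ctse 3 each, and the others 1 each. RNA of whole mouse lung had been read on 8 oligonucleotide arrays, 2 for each of 4 groups. The groups cross the strain, C3H/HeJ or C3H/HeOuJ, with the exposure, filtered air or ozone. The receptor for endotoxin, Tlr4, is disabled by a point mutation in C3H/HeJ and intact in C3H/HeOuJ. For C3H/HeOuJ the labels give 72 h of exposure to ozone or air; they give no duration for C3H/HeJ, and no ozone dose, age or sex for either. From the labels, strain and duration therefore cannot be told apart in any comparison between the strains or in the interaction.

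Cathepsins are the proteases of the lysosome, the acidic compartment in which cells break down what they have taken up. Most are cysteine proteases of the papain family (Ctsb, Ctsc, Ctsh, Ctsk, Ctsl, Ctss and Ctsz), Ctsd and Ctse are aspartic proteases, and Ctsg is a serine protease stored in granules of myeloid cells. In lung, macrophages are rich in them, Ctss trims the invariant chain for MHC class II presentation, and Ctsh takes part in the processing of surfactant proteins in alveolar type 2 cells. Secreted cathepsins cut elastin and collagen, and cystatins hold them in check.

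Intensities are linear values per probe set, scaled by the submitters so that the arrays share 1 trimmed mean, and are not comparable between probe sets. A floor stood at 69.6, the 20th percentile of all values, and 10953 probe sets above it on at least 2 of 8 arrays were tested. Of the 17 cathepsin probe sets 16 were tested, covering 9 genes; Ctsg was too dim. Differences are log2 fold changes from limma with their standard errors (SE), and a call is an adjusted p under 0.05 by Benjamini-Hochberg over all probe sets tested. The array medians ranged from 350 to 385. The 5'/3' ratio of the actin control, a measure of RNA integrity and labelling, was 0.766 and 0.756 on the HeOuJ ozone arrays and 0.432 to 0.603 on the other 6. The 4 groups did not overlap in this ratio, so a fit with it as a covariate cannot cleanly separate the ratio from the group. Values from such fits carry a wide SE, and no conclusion is drawn from them. Since whole lung was measured, more cells of a type and more RNA per cell cannot be told apart. Whether a group's arrays stem from different animals is not stated, so p-values reflect array-to-array spread that may be technical.

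Promoter sequences were held for 7 of the 10 genes in the RefSeq table of GRCm38.p6. Shown are the 250 bases before the start of Ctss and Ctsk, neighbouring genes on chromosome 3, and of Ctsd and Ctsc, since these 4 read brighter on all 4 HeOuJ arrays than on any HeJ array. The windows are chr3:95526536-95526785 on the plus strand for Ctss, chr3:95498960-95499209 on the plus strand for Ctsk, chr7:142387828-142388077 on the minus strand for Ctsd, and chr7:88277835-88278084 on the plus strand for Ctsc. Capitals mark matches to the motifs searched, on either strand, which were CACGTG (the core read by TFEB, a regulator of lysosomal genes, and by other factors), the core of an interferon response element (GAAA, any 2 bases, GAAA) and TGANTCA (AP-1).
Ctss: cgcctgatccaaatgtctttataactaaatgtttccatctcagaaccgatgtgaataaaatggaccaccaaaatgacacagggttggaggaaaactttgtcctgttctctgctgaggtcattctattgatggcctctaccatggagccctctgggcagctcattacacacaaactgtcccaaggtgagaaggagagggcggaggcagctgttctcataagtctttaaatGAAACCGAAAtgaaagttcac
Ctsk: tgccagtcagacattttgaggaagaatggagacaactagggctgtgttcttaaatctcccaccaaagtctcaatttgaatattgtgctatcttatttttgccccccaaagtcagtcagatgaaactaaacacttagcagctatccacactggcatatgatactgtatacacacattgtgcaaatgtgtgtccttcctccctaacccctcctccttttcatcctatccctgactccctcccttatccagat
Ctsd: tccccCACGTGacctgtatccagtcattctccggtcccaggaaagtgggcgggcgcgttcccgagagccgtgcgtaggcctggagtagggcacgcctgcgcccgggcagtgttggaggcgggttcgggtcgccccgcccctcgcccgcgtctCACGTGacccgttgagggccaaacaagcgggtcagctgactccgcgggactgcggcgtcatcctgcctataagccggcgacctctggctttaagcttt
Ctsc: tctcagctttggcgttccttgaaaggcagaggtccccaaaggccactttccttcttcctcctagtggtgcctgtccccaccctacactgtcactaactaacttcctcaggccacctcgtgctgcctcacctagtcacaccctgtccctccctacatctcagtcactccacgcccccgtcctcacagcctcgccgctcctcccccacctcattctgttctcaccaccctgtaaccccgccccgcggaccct
The Ctss window held the interferon response core, beginning 21 bases before the start. The Ctsd window held CACGTG at 245 and at 98 bases before the start. No match of any of the 3 motifs was found in the Ctsk or Ctsc window. Over the 7 genes, CACGTG was found in 2 windows (Ctsd and Ctsl), the interferon response core in 1 and TGANTCA in 0. Among all 32851 promoter windows of this length, 6.02% held CACGTG, 2.98% the interferon response core and 6.75% TGANTCA.

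In C3H/HeOuJ in ozone, Ctsh, the aminopeptidase-type cathepsin, read 7059 and 6888, while the other 6 arrays lay between 4295 and 4701. Its group means were 4367 ± 101 in HeJ air, 4528 ± 222 in HeJ ozone, 4594 ± 152 in HeOuJ air and 6973 ± 121 in HeOuJ ozone (SD, n = 2 each). The 2 HeJ groups overlapped, as did HeJ ozone with HeOuJ air. Against HeOuJ air the log2 fold change of Ctsh was 0.60 (SE 0.12), a 1.52-fold higher level, with an adjusted p of 0.0695 in limma. Against HeJ ozone it was 0.62 (SE 0.12, 1.54-fold, adjusted p 0.0539). Neither difference passed the threshold, though both lay near it. Under 18 other settings Ctsh passed in 2 for the first (adjusted p 0.0379 and 0.0444 in limma) and in 6 for the second (0.0305 to 0.0492), and in none that left out an array. The ozone effect on Ctsh was greater in C3H/HeOuJ than in C3H/HeJ by 0.55 (SE 0.17, unadjusted p 0.00936 and adjusted p 0.277 in limma), so a difference between the strains' responses was not established after adjustment. With the actin 5'/3' ratio as a covariate, the ozone effect on Ctsh in C3H/HeOuJ was 0.57 with an SE of 0.31.

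Ctsc, which activates the granule serine proteases of leukocytes, was likewise brightest in HeOuJ ozone, with a wider spread. It read 2515 and 2416 in HeJ air, 2632 and 2092 in HeJ ozone, 2828 and 2649 in HeOuJ air, and 3266 and 4180 in HeOuJ ozone. Both HeOuJ ozone arrays were above the other 6. Its log2 fold change was 0.43 (SE 0.16, adjusted p 0.261) against HeOuJ air and 0.66 (SE 0.16, adjusted p 0.0966) against HeJ ozone in limma. Without HeOuJ ozone 1b, the first of these was 0.26 (SE 0.16).

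Ctsk, a collagenase and elastase best known from osteoclasts, read 935 and 987 in HeJ air and 871 and 1040 in HeJ ozone, which overlapped. It read 1050 and 1176 in HeOuJ air, and 1434 and 1336 in HeOuJ ozone. The HeOuJ groups did not overlap each other or the HeJ groups. The difference between the strains in ozone was 0.54 (SE 0.16, 1.45-fold, adjusted p 0.144 in limma), and that between ozone and air in C3H/HeOuJ was 0.32 (SE 0.16, adjusted p 0.39).

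Ctsb, the most widely expressed of the cysteine cathepsins, read 7568 and 6841 in HeOuJ ozone and 5833 and 5783 in HeOuJ air on probe set 94831_at. HeJ air at 6749 and 6126 and HeJ ozone at 5971 and 6786 lay between, and overlapped. The ozone effect in C3H/HeOuJ was 0.31 (SE 0.13, adjusted p 0.312 in limma). With the actin 5'/3' ratio as a covariate it was -0.0096 (SE 0.33), too wide to give a direction. Ctsz, an exopeptidase, read 1628 and 1572 in HeOuJ ozone against 1183 to 1472 on the other 6 arrays. The ozone effect on Ctsz in C3H/HeOuJ was 0.32 (SE 0.16, adjusted p 0.385).

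**Figure D1:**
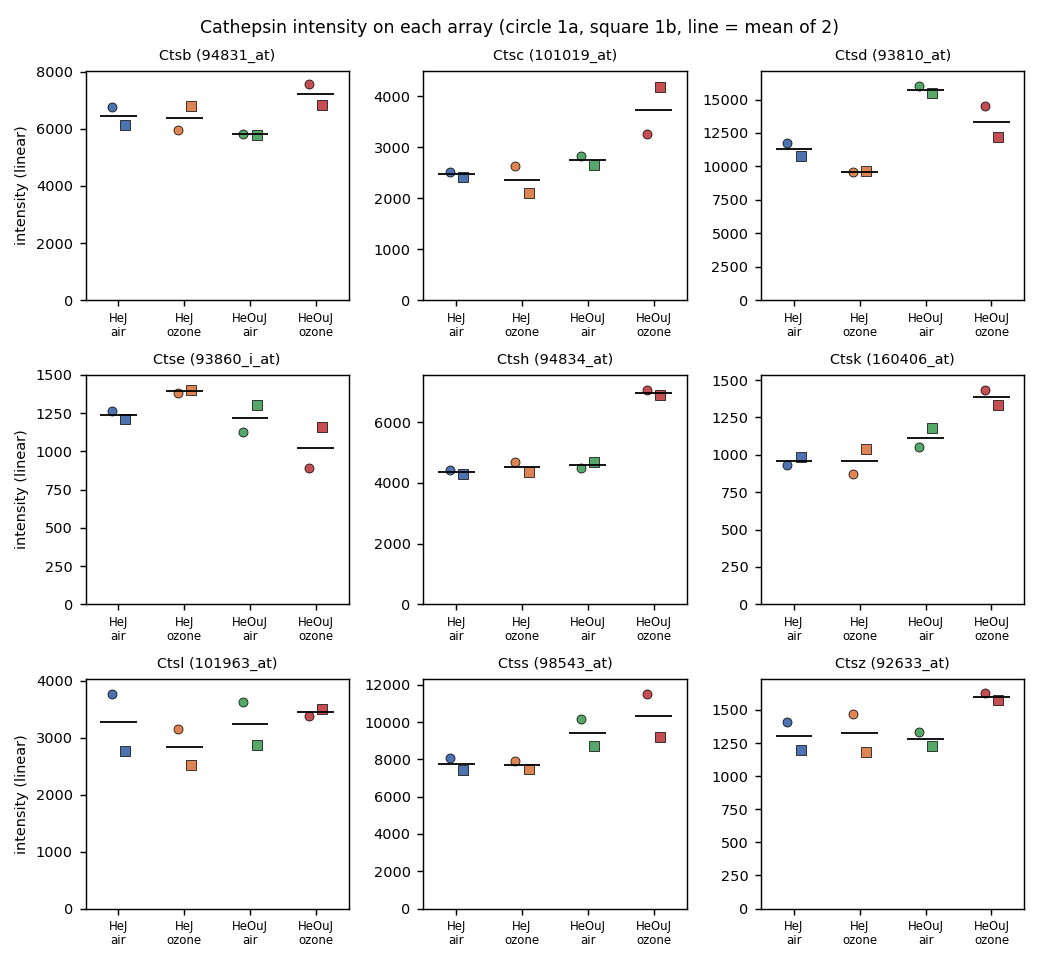
Intensity (linear axis from 0) of the 9 tested cathepsin genes on each array, by group; circles are arrays 1a, squares arrays 1b, and lines the mean of 2. Ctsh stood at 7059 and 6888 in HeOuJ ozone against 4295 to 4701 elsewhere, while Ctsd was at least 12176 on every HeOuJ array and at most 11760 on every HeJ array.

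Ctsd and Ctss separated the arrays by strain, without passing the threshold. Ctsd, the main aspartic protease of lysosomes, read 11760 and 10807 in HeJ air, 9561 and 9641 in HeJ ozone, 16021 and 15474 in HeOuJ air, and 14481 and 12176 in HeOuJ ozone. All 4 HeOuJ arrays were above all 4 HeJ arrays, and within each strain ozone lay below air. The strain difference was 0.48 (SE 0.15, 1.40-fold) in air and 0.47 (SE 0.15, 1.38-fold) in ozone. Averaged over exposures it was 0.47 (SE 0.11, unadjusted p 0.00171 and adjusted p 0.135 in limma). The interaction was -0.01, with a 95% interval of -0.50 to 0.47. Ozone against air gave -0.23 (SE 0.15) in C3H/HeJ and -0.25 (SE 0.15) in C3H/HeOuJ, and neither passed. With the actin ratio as a covariate the strain difference of Ctsd in ozone was 0.11 (SE 0.61) and that of Ctss 0.14 (SE 0.65), and in air that of Ctsd was 0.24 (SE 0.43).

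Ctss read 8071 and 7414 in HeJ air and 7910 and 7481 in HeJ ozone, which overlapped. In C3H/HeOuJ it read 10174 and 8709 in air and 11521 and 9183 in ozone, which overlapped as well. The strain difference in ozone was 0.42 (SE 0.16), and 0.26 (SE 0.15) without HeOuJ ozone 1a. All 4 HeOuJ arrays were above all 4 HeJ arrays, with a mean strain difference of 0.35 (SE 0.11, 1.28-fold, adjusted p 0.251 in limma). Ctsc and Ctsk were the other 2 genes whose HeOuJ arrays all lay above the HeJ arrays, at 0.40 (SE 0.12) and 0.38 (SE 0.12). A separation of 4 arrays from 4 in this direction was found for 2.7% of the 10953 probe sets tested, and for 4 of the 16 cathepsin probe sets.

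Ctsl, an endopeptidase of lysosomes and of the extracellular space, read 3776 and 2766 in HeJ air, 3147 and 2522 in HeJ ozone, 3625 and 2867 in HeOuJ air, and 3378 and 3510 in HeOuJ ozone. The 2 ozone groups did not overlap (0.29, SE 0.19, 95% interval -0.15 to 0.73), and the air groups differed by 0.00 with an interval of -0.44 to 0.43. Ctsg was above the floor on 1 of 8 arrays, HeOuJ ozone 1a at 94.6, and read 5.90 to 45.9 on the other 7, so no difference was detectable. In the same arrays 13 of 14 neutrophil markers were on the array and all 13 were tested, with summed intensities of 8036 to 8214 in HeJ air and 6458 to 8637 in HeOuJ ozone.

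Ctse, an aspartic protease of endosomes in epithelial and immune cells, was lower in HeOuJ ozone than in HeJ ozone on the probe set that stands for it. Probe set 93860_i_at read 1261 and 1214 in HeJ air, 1384 and 1404 in HeJ ozone, 1129 and 1302 in HeOuJ air, and 892 and 1159 in HeOuJ ozone. The strain difference in ozone was -0.46 (SE 0.17, unadjusted p 0.0276 and adjusted p 0.217 in limma), and -0.27 (SE 0.14) without HeOuJ ozone 1a. The other 2 probe sets of Ctse gave -0.27 (SE 0.20) for 93861_f_at and -0.18 (SE 0.38) for 104696_at, and their ozone groups overlapped. Ozone against air in C3H/HeJ was 0.17 for 93860_i_at but -0.09 and -0.44 for the other 2, so the probe sets did not share a direction there. In the maker's naming an i or f before "at" marks probe sets with an incomplete probe choice or with probes shared by related sequences. 93860_i_at and 93861_f_at were designed on the same source sequence and 104696_at on another, and whether the former pair measures Ctse or another sequence was not tested. Counts over 9 genes below include 93860_i_at as Ctse, with that doubt.

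The other probe sets of Ctsb and Ctsc were dimmer, and they gave no call. For Ctsb, 95608_at ranged from 425 to 766 and had 0.38 (SE 0.25) for ozone in C3H/HeOuJ, in the direction of 94831_at. 92256_at ranged from 348 to 717, with 0.29 (SE 0.35). The family probe set 162271_f_at read 164 and 99.4 in HeJ air and lay at or under 58.1 on the other 6 arrays, all below the floor. Its differences from HeJ air are therefore bounded by the floor, and it was tested only because of the group in which it was high, so its p-values are not read as results. For ozone in C3H/HeJ it gave -0.88 (SE 0.30), where 94831_at gave -0.01 (SE 0.13). For Ctsc, 101020_at (28.9 to 194) and 161251_f_at (16.0 to 170) crossed the floor within groups and gave -0.33 (SE 0.48) and 0.05 (SE 0.47) for ozone in C3H/HeOuJ.

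**Figure D2:**
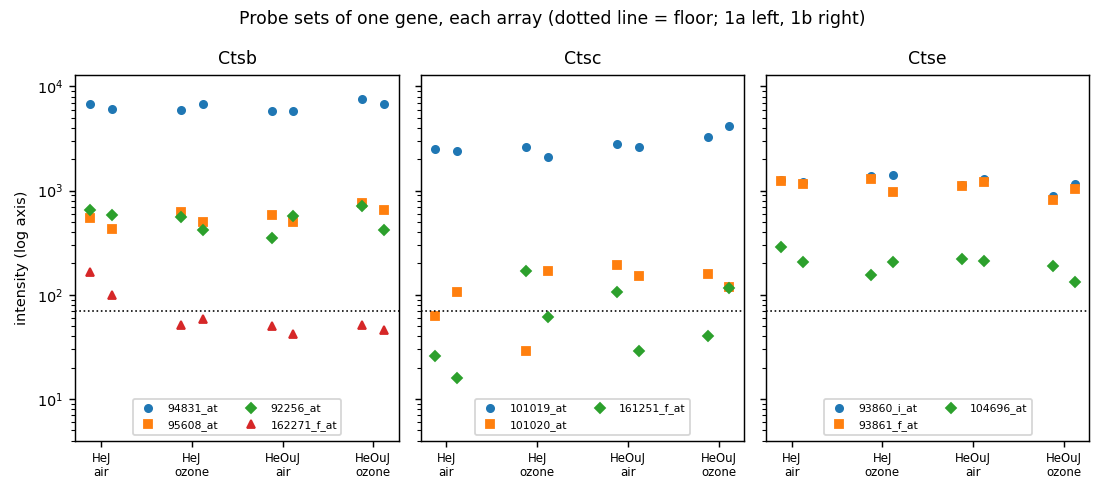
Intensity (log axis) of each probe set of Ctsb, Ctsc and Ctse on each array, by group; 1a is drawn left and 1b right, and the dotted line is the floor of 69.6. Of Ctsb only 162271_f_at falls below the floor, on 6 of 8 arrays, and 101020_at and 161251_f_at of Ctsc do so on 2 and 5.

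No cathepsin probe set was called in limma in any of the 7 comparisons. For ozone against air in C3H/HeJ 0 of 16 were called, and none had an unadjusted p under 0.05 apart from 162271_f_at, whose p is set by the floor; of all probe sets 0% were called, 4.35% had such a p and 2.36% had it and were higher. For ozone against air in C3H/HeOuJ 0 of 16 were called and 3 had an unadjusted p under 0.05, all higher (Ctsh, Ctsc and Ctsb); of all probe sets 0.456% were called, 15.5% had such a p and 7.77% had it and were higher. In air, C3H/HeOuJ against C3H/HeJ gave 0 calls, with Ctsd higher at an unadjusted p under 0.05 and 162271_f_at again left aside, beside 0.0456% called, 5.71% at that p and 3.12% at that p and higher over all probe sets. In ozone, C3H/HeOuJ against C3H/HeJ gave 0 calls and 6 of 16 at that p, beside 0.977% and 18% over all, with 9.11% higher. The 6 were Ctsh, Ctsc, Ctsk, Ctsd and Ctss, higher, and Ctse, lower.

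In this last comparison the arrays of the 2 groups did not overlap for any of the 9 genes, with 8 higher and Ctse (93860_i_at) lower in C3H/HeOuJ, against 24.4% of all probe sets higher and 21.6% lower. Over the 16 cathepsin probe sets tested, 9 were higher and 1 lower, and the others overlapped. The 9 genes had a median log2 fold change of 0.42 and all probe sets one of 0.02. With quantile normalisation 7 of the 8 genes stayed above, Ctsb then overlapping, and with median centring 7, Ctsl then overlapping. For ozone in C3H/HeOuJ, 5 genes were higher and 1 lower without overlap, the median was 0.31, and 22.3% of all probe sets were higher and 19.5% lower without overlap. Of the 16 cathepsin probe sets, 6 were higher and 3 lower. The 2 HeOuJ ozone arrays enter both comparisons, which are therefore not separate results. For ozone in C3H/HeJ the median of the 9 genes was -0.01, with 1 gene higher and 1 lower without overlap (18.4% and 16% of all probe sets). In air, 5 genes were higher and 1 lower in C3H/HeOuJ without overlap (17.1% and 15.5%), with a median of 0.07.

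The interaction had 0 calls of 16, and Ctsh alone had an unadjusted p under 0.05, beside 0% and 11.4% over all probe sets, with 5.13% higher. Averaged over strains, ozone gave 0 calls and again Ctsh at that p (0.33, SE 0.08, adjusted p 0.308), beside 0.0183% and 9.25%, with 4.71% higher. No cathepsin's 4 ozone arrays were all above or all below its 4 air arrays, which 2.01% and 1.22% of all probe sets showed. Averaged over exposures, the strain difference had 0 calls and 5 of 16 at that p, all higher in C3H/HeOuJ (Ctsc, Ctsd, Ctsh, Ctsk and Ctss), beside 0.155% called, 13% at that p and 6.68% at that p and higher over all. None of the 16 had its HeOuJ arrays all below its HeJ arrays, as 2% of all probe sets had.

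**Figure D3:**
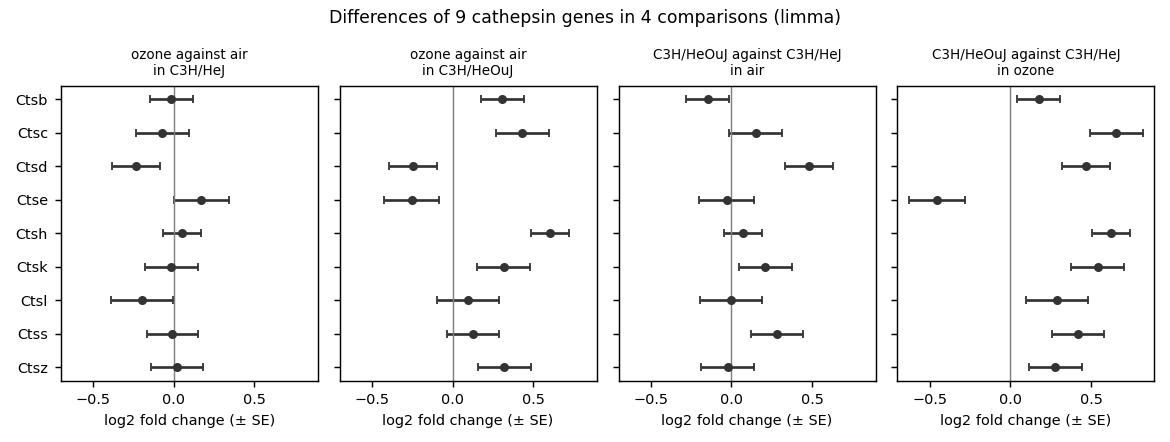
Log2 fold change with its standard error for 1 probe set of each of 9 cathepsin genes in 4 comparisons from limma. Values run from -0.23 (Ctsd) to 0.17 (Ctse) for ozone in C3H/HeJ. Between the strains in ozone 8 of 9 lie above 0, up to 0.66 for Ctsc, and Ctse lies at -0.46.

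Marker genes of cells that carry cathepsins were read in the same groups. Of 15 macrophage markers 12 were on the array and 11 were tested, Marco being below the floor on all arrays. Their summed intensity was 41265 to 45330 in HeOuJ ozone, above the 27089 to 32163 of HeJ ozone and the 32765 to 40390 of HeOuJ air, with HeJ air at 31665 to 36809. Of 9 alveolar type 2 markers, 5 were on the array and tested, and they summed to 136579 to 145292 in HeOuJ ozone and 90203 to 113525 on the other 6 arrays. Such sums are carried by the brightest genes, and the median log2 fold changes between the strains in ozone were 0.28 over the macrophage and 0.12 over the type 2 markers. Between the strains in ozone 7 macrophage markers were higher and 4 lower, with 1 called, and 3 type 2 markers were higher and 2 lower, with 0 called. Over all probe sets 0.977% were called in this comparison and 0.456% for ozone in C3H/HeOuJ. The called macrophage marker, Cd68, a lysosomal membrane protein of macrophages, was higher in HeOuJ ozone than in HeJ ozone by 1.29 (SE 0.18, adjusted p 0.0329 in limma). In air Cd68 was higher in C3H/HeOuJ as well, by 0.59 (SE 0.18), without a call. Averaged over exposures it was called (0.94, SE 0.12, adjusted p 0.0322 in limma), as 0.155% of all probe sets were. There 6 macrophage markers were higher in C3H/HeOuJ and 5 lower. In C3H/HeOuJ, 6 macrophage markers were higher and 5 lower in ozone than in air, and the called one, the chitinase-like Chil3, fell by 1.19 on the log2 scale (SE 0.18, adjusted p 0.0464). Fibroblast and matrix markers went the other way from Ctsk, with all 9 lower in HeOuJ ozone than in HeJ ozone (median -0.29, 0 called). For the 11 B cell and MHC class II markers tested, which accompany Ctss, the sums in air were 52953 to 53607 in C3H/HeJ and 39875 to 43327 in C3H/HeOuJ, opposite to Ctss. In ozone they overlapped, at 42202 to 43917 and 40347 to 45536. Of the 11 markers, 8 were higher in C3H/HeOuJ (median 0.20, 0 called), as Ctss was, and 3 were lower. The class II genes H2-Eb1 and H2-Aa and the invariant chain gene Cd74 went the other way from Ctss. Their mean intensities were 3544, 10808 and 18082 in HeJ ozone and 3202, 10610 and 16138 in HeOuJ ozone. Of 9 cardiac and skeletal muscle markers, 8 were higher in HeOuJ than in HeJ ozone and 1 was called, and of 6 club cell and airway markers, 5 were higher and 1 was called. The part of these cells in the cathepsin values was not tested.

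Other genes of the lysosome were read in the same comparisons. Of the cathepsins outside the 10 genes followed, 4 were on the array and 2 were tested. Ctsa, the protective protein of the lysosomal sialidase, read 1533 and 1856 in HeJ air, 1388 and 1367 in HeJ ozone, 1872 and 1896 in HeOuJ air, and 2463 and 2302 in HeOuJ ozone. It was the only called gene among the lysosomal lists, higher in HeOuJ than in HeJ ozone by 0.79 (SE 0.14, adjusted p 0.0493 in limma). The call held under 5 of 18 other settings and was lost under 13, with values from 0.74 to 1.45 over the 18. Among the losses were each fit that left out 1 array and the fit with the actin ratio as a covariate (1.45, SE 0.51). No conclusion is drawn from the latter. Ctsf was level, with group means of 908 to 949.

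Of 27 lysosomal hydrolases tested, 17 were higher and 10 lower in HeOuJ than in HeJ ozone, with a median of 0.08 and no call. At an unadjusted p under 0.05 in limma, 3 were higher and 1 lower, beside 18% of all probe sets, with 9.11% higher. Without overlap 11 were higher and 4 lower, beside 24.4% and 21.6% of all probe sets. Averaged over exposures, 5 were higher and 0 lower at that p, with 6.68% of all probe sets higher. Between the strains in ozone Acp5, the tartrate-resistant phosphatase, had 0.99 (SE 0.24, adjusted p 0.0932 in limma). Man2b1, the lysosomal mannosidase, had 0.56 (SE 0.14, adjusted p 0.0932). With the actin ratio as a covariate these were 0.51 (SE 0.98) and 0.064 (SE 0.54), and Acp5 passed when only probe sets above the median level were kept (adjusted p 0.0397 in limma). For ozone in C3H/HeOuJ 12 hydrolases were higher and 15 lower (median -0.01), with the cholesterol carrier Npc2 at 0.68 (SE 0.19) and Man2b1 at 0.45 (SE 0.14), neither called; with the covariate they were 0.42 (SE 0.51) and 0.14 (SE 0.35). Of 41 genes of the membrane, the sorting machinery and the proton pump, 21 were higher and 20 lower between the strains in ozone (median 0.03, no call). At an unadjusted p under 0.05 in limma, 7 of the 41 were higher and 5 lower, beside the same 18% of all probe sets, with 9.11% higher. Without overlap 11 of them were higher and 14 lower, beside the same 24.4% and 21.6%. The membrane glycoprotein Lamp2 had -1.56 (SE 0.33) there, turning to 1.11 (SE 0.86) with the actin ratio as a covariate, and the receptor Scarb2 had 0.54 (SE 0.15), or 0.11 (SE 0.58) with it. For ozone in C3H/HeOuJ the pump subunit Atp6v1g1 had 0.67 (SE 0.14) and Lamp2 -1.67 (SE 0.33), neither called. Lamp2 passed under 3 other settings (smallest adjusted p 0.0229 in limma) and was -0.031 (SE 0.56) with the covariate, and Atp6v1g1 passed with only probe sets above the median level (adjusted p 0.0468).

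Of 10 cathepsin inhibitors tested, 6 were higher and 4 lower in HeOuJ than in HeJ ozone, with a median of 0.18 and no call. At an unadjusted p under 0.05 in limma, 2 were higher and 1 lower, beside 18% of all probe sets, with 9.11% higher. Without overlap 5 were higher and 1 lower, beside 24.4% and 21.6% of all probe sets. The leukocyte protease inhibitor Slpi had 0.52 (SE 0.15), or 0.047 (SE 0.59) with the actin ratio as a covariate, and the granzyme inhibitor Serpinb9 -0.67 (SE 0.16), or 0.11 (SE 0.60) with it. Averaged over strains, Kng1, a kininogen with cystatin domains, had 1.60 (SE 0.29, adjusted p 0.194) and Cstb, an intracellular cystatin, 0.26 (SE 0.09, adjusted p 0.417) for ozone against air. With the covariate Cstb had 0.47 (SE 0.23).

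**Figure D4:**
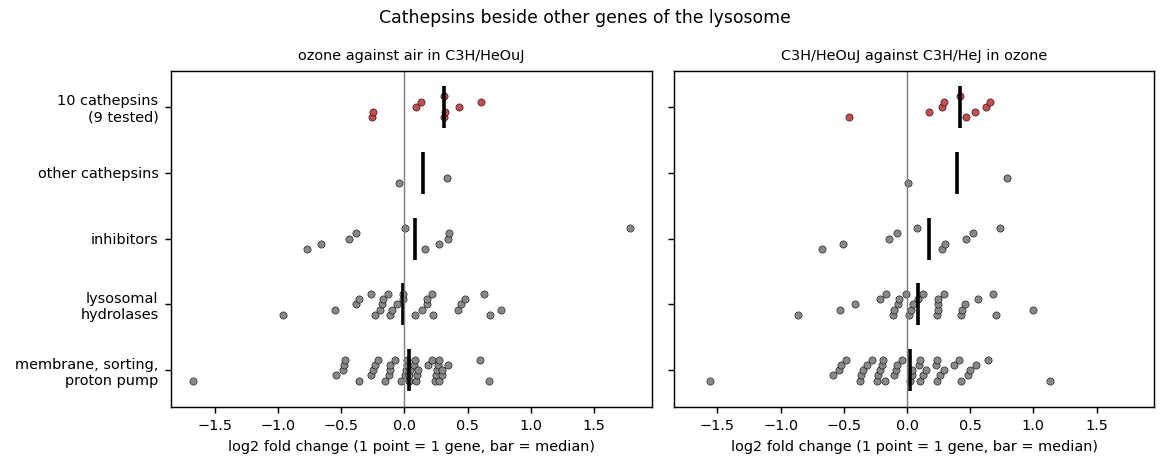
Log2 fold change of each tested gene (1 point a gene, bar at the median) in 5 lists of lysosomal genes, for ozone in C3H/HeOuJ (left) and for C3H/HeOuJ against C3H/HeJ in ozone (right). The cathepsin medians are 0.31 and 0.42, and those of the hydrolases -0.01 and 0.08.

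The genes whose log2 levels ran most like 3 of the cathepsins over the 8 arrays were found by Pearson correlation, as a description. With 9682 or more candidates and 8 points, high values arise in number: 134 probe sets reached above 0.9 with Ctsh, 60 with Ctsc and 18 with Ctsd. The closest to Ctsh was Nans, the sialic acid synthase (r = 0.991, n = 8), with group means of 677, 724, 695 and 1066 in the order HeJ air, HeJ ozone, HeOuJ air and HeOuJ ozone. H1f8 and Hoxd10 followed (r = 0.989 and 0.989), with group means below the floor outside HeOuJ ozone. Values under the floor were raised to it. The r of H1f8 and Hoxd10 therefore rests largely on HeOuJ ozone against the floor, and it is not read as a shared pattern. The closest to Ctsc were the macrophage capping protein Capg (r = 0.968), the lysosomal thiol reductase Ifi30 (r = 0.968) and Enoph1 (r = 0.964). Ifi30 had means of 724, 559, 775 and 1324 in that order. The closest to Ctsd were Klf9 (r = 0.960), Fabp1 (r = 0.943) and Kif3b (r = 0.941), with Klf9 means of 358, 327, 515 and 423.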

How the data were processed

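Whole mouse lung RNA had been hybridised to 8 oligonucleotide arrays, 2 in each of 4 groups taken from the sample titles. Per the values, the authors deposited a linear intensity for each probe set, scaled so that every array has a 2% trimmed mean of 800.4; how this was done is not stated. The 66 control probe sets among 12488 were dropped. Values under the 20th percentile (69.6) were raised to it, log2 was taken, and 10953 probe sets above it on at least 2 arrays were tested. One limma model (version 3.58.1 under R 4.3.3, with eBayes and a variance trend) held 4 group means, with 4 residual and 4.54 prior degrees of freedom; the number of arrays limits the precision, with a median SE of 0.30 for 2 arrays against 2. It was tested on simulated data. Benjamini-Hochberg adjustment ran over all probe sets tested. Genes were named by the platform's 2016 annotation. The probe set of highest mean level stood for a gene; members with an unadjusted p under 0.05, and from each other list the genes called or else up to 2 of smallest p, are given with values. The 3 genes with the widest range of group means were matched to genes of like pattern. The members and lists were chosen with earlier results of these data known. Cathepsins were tested under other normalisations, floors, filters, variance models and array choices. Over all probe sets, arrays sharing the letter a or b deviated together little (correlations -0.0101 to 0.138), so the letters were not used as pairs. The summed cathepsin intensity was nevertheless higher on 1a than on 1b in every group. It was 40943 and 37233 in HeJ air, 37678 and 36549 in HeJ ozone, 46513 and 43907 in HeOuJ air, and 51323 and 46856 in HeOuJ ozone. Such sums are carried by the brightest genes, and a shift shared by the letters was not tested. Figures were drawn with matplotlib 3.10.9 under Python 3.11.15.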

Additional observations from a re-analysis of the deposited data

How the results depend on the processing

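No cathepsin probe set was called in the reported fit, and this held in all alternatives tried for 5 of the 7 comparisons. The count for C3H/HeOuJ against C3H/HeJ in ozone went from 0 to 1, which was Ctsh, with quantile normalisation, a floor at the 10th percentile, no floor with 32 added before log2, no filter on dim probe sets, only probe sets above the median level, and the replicate letters as a block (1, adjusted p 0.0492 in limma). The count for ozone in C3H/HeOuJ went from 0 to 1, again Ctsh, without the filter and with only probe sets above the median level. No fit that left out 1 array gave a call. The actin 5'/3' covariate turned the direction of Ctsb for ozone in C3H/HeOuJ (-0.0096). Between the strains in ozone it turned that of Serpinb9 (0.11) and Lamp2 (1.11), and over both exposures that of Man2b1 (-0.13). The groups did not overlap in this ratio, so these fits cannot separate it from the group, and no direction is read from them. Of 333 values of cathepsin probe sets under the other settings, 324 kept direction and side of the threshold, 8 passed it (all Ctsh) and 1 reversed. Only differences with an unadjusted p under 0.05 in the reported limma fit were refitted, so they had been picked in these same data. They include the family probe set of Ctsb, whose p-values are not read as results. The count therefore does not show how stable the cathepsin values are as a whole. The cause of these changes was not tested. The values of other lysosomal genes and of the overlap count under alternatives were added after the data were seen. With 2 arrays a group, the 95% interval of Ctsl between the strains in air ran from -0.44 to 0.43, so smaller differences of Ctsl could not be seen. That of Ctsh was narrower, at -0.19 to 0.34.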
